A study of Mus musculus with 4 samples.

Results

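The response of the control liver to refeeding was read from liver RNA of mice on a high-fat diet. The comparison uses 2 of the 4 arrays of the series, the Cont refed array and the Cont fasted array, chosen by their titles, and all probes for genes on them. The other pair of arrays, from livers with a hepatocyte deletion of Drp1 (Drp1LiKO), serves here only to show how the same genes differed in a second pair that shares no array with the Cont pair. Cont stands for Drp1 flox/flox littermates that carry the unrecombined allele, so that it is a floxed and not a plain wild-type liver, although the labels call it wild type. All animals were male C57BL/6J mice with 24 weeks of high-fat diet per the labels. The refed mice were fasted for 17 h and then refed for 4 h. The study's methods give a slightly shorter fast and a range of diet times. For the livers not marked as refed, no feeding state is stated, and the labels describe their raw data as shared with earlier submissions. They are taken as fasted because the study describes them so, and what is called fasted here depends on this. The methods collect fasted livers in the late morning and refed livers in the early afternoon, so that refeeding and clock time cannot be told apart. The number of animals behind an array is not stated.

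Fasting and refeeding move the liver between release and storage of fuel. With low insulin, glucagon and glucocorticoids drive gluconeogenesis, FoxO1 activates genes such as Igfbp1, and the fatty acid receptor PPARα activates oxidation and ketogenesis. After a meal insulin excludes FoxO1 from the nucleus and activates SREBP1c, the product of Srebf1, which turns on fatty acid synthesis, and protein synthesis and secretion increase.

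With refeeding, the genes with the largest increases that also rose in the Drp1LiKO pair were Angptl8, an insulin-induced inhibitor of lipoprotein lipase, and Thrsp, a lipogenic regulator. The growth hormone feedback regulator Cish, the peroxisomal fatty acid transporter Abcd2 and the FoxO1 target Igfbp1 fell. All of these but Angptl8 lie in the middle print rows of the slide, where calls cluster, and the part of that position was not tested. The medians of the lipogenesis and ER chaperone lists lay above the median of all genes, and those of insulin and FoxO1 targets and of PPARα targets lay below it. The fasted Cont array also carried signal of skeletal muscle genes, whose median difference was -2.99 in 21 measured markers and -0.63 in the 8 of them measured on both Cont arrays.

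Each array holds 43020 spots for genes, and levels are log2 signals relative to the 75th percentile of the array. That percentile lay at an intensity of 461 for the fasted and 357 for the refed Cont array, and at 722 and 526 for the Drp1LiKO arrays. The share of gene spots well above background was 51.4% on the fasted and 48.7% on the refed Cont array. Differences are refed minus fasted on the log2 scale. There are no replicates. The standard error (SE) of a difference was taken from the errors that the scanner software assigns to spots, so that it holds measurement error and not variation between animals, and its median was 0.21. The number of arrays limits the precision. A gene is said to have risen or fallen when it differed at least 2-fold and its brighter signal was well above background. Where the dim side was not well above background, the difference is given as a bound ("at least").

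Of 16437 genes well above background on at least 1 Cont array, 735 rose (4.47%) and 958 fell (5.83%). In 489 of the genes that rose and 607 of those that fell, the dim side was not well above background. Of the latter, 103 allow no fold at all. Among the 14541 genes measured on both Cont arrays, 246 rose (1.69%) and 351 fell (2.41%). In these genes the median difference was 0.11, and the central 95% of differences ran from -0.99 to 0.86. Correcting the background by the normexp method, which damps differences of dim probes, gave 439 higher and 287 lower genes. The larger number of falls was not seen with it, nor without a filter on dim probes (1846 higher and 1329 lower). In the Drp1LiKO pair 1028 genes rose (5.61%) and 1311 fell (7.15%) of 18329, and among 16320 genes measured on both of its arrays 527 rose (3.23%) and 567 fell (3.47%).

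The Drp1LiKO pair was read beside the Cont pair in 14447 genes measured on all 4 arrays. Of the 342 genes that fell in the Cont liver, 313 (91.5%) were also lower in the refed Drp1LiKO liver, where 40.9% of all genes were lower. At least 2-fold falls in both pairs were seen for 140 genes, which is 40.9% of the Cont list and 32.1% of the Drp1LiKO list. Of the 231 genes that rose, 173 (74.9%) were higher in the other pair, against 59.1% of all genes. Both pairs had at least a 2-fold rise for 68 genes, or 29.4% of the Cont and 16.5% of the Drp1LiKO list. Opposite calls were made for 7 of the genes that rose and 5 of those that fell.

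**Figure D1:**
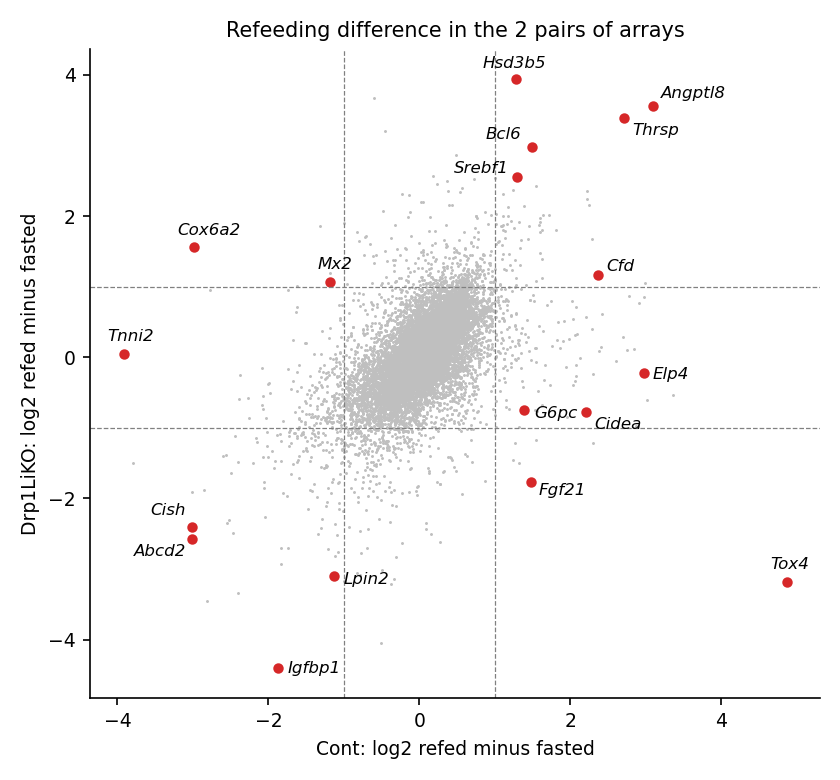
Log2 difference (refed minus fasted) of each gene measured on all 4 arrays, with the Cont pair on the x axis and the Drp1LiKO pair on the y axis; dashed lines mark 2-fold and named genes are red. Angptl8 lies at 3.09 and 3.56, Igfbp1 at -1.88 and -4.41, and Tox4, at 4.87 and -3.18, went opposite ways.

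An additive limma fit of feeding state and genotype over the 4 arrays leaves 1 residual degree of freedom and takes any difference between the pairs as error. It called 0 genes higher (0%) and 0 lower (0%) of 16744 at an adjusted p under 0.05, with a smallest adjusted p of 0.169 and 4414 genes at an unadjusted p under 0.05. Over the settings tried the smallest adjusted p ran from 0.0325 to 0.485. Restricted to the 14447 genes measured on all 4 arrays, limma called 6 genes higher, namely Angptl8, Mid1ip1, Nat8f5, Serpina9, Slpi and Thrsp, and 9 lower, among them Abcd2, Cish, Ctcflos and Fam13a.

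Several genes of de novo lipogenesis rose. Of its 14 genes 13 were measured, 4 rose and 0 fell, and 11 of 13 lay above 0. Of all genes 4.47% rose, 5.83% fell and 58.6% lay above 0, which is the background for the counts of every list. The list's median was 0.51, against 0.09 for all genes, and 1.30 in the Drp1LiKO pair. Quantile normalization gave 0.34 against 0.03 for all genes, and there and with the authors' values ribosome biogenesis had a higher median. Thrsp, also known as Spot 14, stood at 3.15 in the fasted and 5.86 in the refed Cont liver, and at 1.15 and 4.54 in the Drp1LiKO livers. It rose by 2.71 (SE 0.20) in the Cont pair and 3.39 in the other. Its paralog Mid1ip1, which promotes the polymerization of acetyl-CoA carboxylase, went from 1.61 to 3.84, a rise of 2.23 (SE 0.20), and from 1.48 to 3.84 in the Drp1LiKO livers. In both genes each refed array was higher than each fasted array. Srebf1, the gene of the lipogenic transcription factor, went from -1.35 to -0.06, up by 1.29 (SE 0.21), and the Drp1LiKO livers had -3.0 and -0.45. Fasn, which encodes fatty acid synthase, had levels of -2.42 fasted and -0.88 refed, a rise of 1.54 (SE 0.23), beside -3.4 and -0.98 in the Drp1LiKO livers. The other lipogenic enzymes were under 2-fold on the probe read. Elovl6, an elongase, differed by 0.73, Scd1, a desaturase, by 0.58, Acly, which makes cytosolic acetyl-CoA, by 0.51, and the acetyl-CoA carboxylases Acaca and Acacb by 0.11 and -0.30. The 3 Acaca probes measured on both Cont arrays ran from 0.03 to 0.76, and another was well above background on the refed array alone. Mlxipl, the gene of the glucose-responsive factor ChREBP, was at -0.61 on the probe read and -1.01 on its other probe.

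The promoter of Fasn is printed because it is the lipogenic enzyme that rose, with each CCAAT, the box bound by NF-Y, in capitals on either strand. The window holds the 250 bases before the start in the RefSeq annotation of GRCm38.p6, chr11:120824548-120824797 on the minus strand, and its 3 matches begin 90, 62 and 59 bases before the start; the last pair overlap.
Fasn: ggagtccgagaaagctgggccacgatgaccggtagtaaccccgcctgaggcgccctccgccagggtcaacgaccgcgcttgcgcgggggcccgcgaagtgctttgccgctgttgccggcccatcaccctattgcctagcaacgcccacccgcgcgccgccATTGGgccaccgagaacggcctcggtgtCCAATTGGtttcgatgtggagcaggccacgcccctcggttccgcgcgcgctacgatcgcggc
A CCAAT box was found in 33.8% of all 32851 such windows, in 37.5% of 27025 genes, and in 9 of 13 lipogenesis genes with a window (69.2%). The match is a description, not a site or a cause.

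No glycolysis gene passed 2-fold in the Cont pair. All 13 were measured, 12 lay above 0, where 58.6% of all genes did, and 0 rose and 0 fell. The median was 0.33 (0.13 with quantile normalization), with 0.45 in the Drp1LiKO pair. Pklr, the liver pyruvate kinase, was at 0.78. In gluconeogenesis 9 of 10 genes were measured, with a median of -0.15 that became -0.41 with quantile normalization and the authors' values. Ppargc1a, a coactivator of the fasting program, fell from -0.61 to -1.62, a difference of -1.02 that became -0.98 with quantile normalization and -0.66 with normexp. Pck1, the cytosolic enzyme that makes phosphoenolpyruvate, was at -0.63, and at -1.60 in the Drp1LiKO pair. G6pc, the catalytic subunit that releases free glucose, rose. Its level was 4.04 fasted and 5.42 refed in the Cont livers, and 4.27 and 3.53 in the Drp1LiKO livers, so that it rose by 1.38 (SE 0.20) in the Cont pair and was -0.74 in the other. In glycogen metabolism, where 11 of 11 genes were measured, the median was 0.24 (0.07 with quantile normalization). Ppp1r3c, a subunit that targets a phosphatase to glycogen, rose from 0.93 to 2.47, by 1.54 (SE 0.20), and by 1.08 in the Drp1LiKO pair. Another such subunit, Ppp1r3g, was well above background only on the fasted array of each pair and fell by at least 0.98 (bound -0.98; -0.75 with normexp) in the Cont pair, and Gys2, liver glycogen synthase, was at 0.24.

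The list of insulin and FoxO1 targets leaves out G6pc, Pck1 and Ppargc1a, which were counted with gluconeogenesis. Its median was -0.31, and -0.47 in the Drp1LiKO pair. It was the lowest of the pathway lists as scaled here, while with quantile normalization and the authors' values 5 other lists were lower, PPARα targets the most (-0.45). Of its 17 measured genes 3 fell, Igfbp1, Irs2 and Ppp1r3g, and 1 rose, where 5.83% of all genes fell and 4.47% rose. Igfbp1, a secreted IGF-binding protein repressed by insulin, had a level of 3.4 in the fasted and 1.52 in the refed Cont liver, and of 7.08 and 2.67 in the Drp1LiKO livers. It fell by 1.88 on the log2 scale (SE 0.20) in the Cont pair, and the other pair was at -4.41. The refed Cont liver was the lowest and the fasted Drp1LiKO liver the highest of the 4. Irs2, the insulin receptor substrate known to increase with fasting, went from 1.54 to 0.19, a difference of -1.35 (SE 0.21), and from 1.31 to -0.67. Insr, the insulin receptor, was at -0.87, and its 3 probes ran from -0.87 to -0.01. Gadd45a, a stress gene that FoxO factors can activate, rose instead, from -2.0 to -0.10, by 1.91 (SE 0.23), with 0.23 in the Drp1LiKO pair.

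The promoters of Igfbp1, Irs2 and G6pc are shown because these FoxO1-regulated genes moved in different directions in the Cont liver. Capitals mark CAAAACA, the core of the insulin response element, on either strand, and the promoters were picked among genes that hold it. The windows of 250 bases lie at chr11:7197537-7197786 on the plus strand, chr8:11008930-11009179 on the minus strand and chr11:101367466-101367715 on the plus strand of GRCm38.p6, in the same order, from RefSeq.
Igfbp1: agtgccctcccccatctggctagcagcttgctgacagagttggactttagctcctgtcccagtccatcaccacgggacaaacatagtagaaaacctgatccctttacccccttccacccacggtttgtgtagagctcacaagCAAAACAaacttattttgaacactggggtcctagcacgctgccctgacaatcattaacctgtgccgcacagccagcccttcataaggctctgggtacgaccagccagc
Irs2: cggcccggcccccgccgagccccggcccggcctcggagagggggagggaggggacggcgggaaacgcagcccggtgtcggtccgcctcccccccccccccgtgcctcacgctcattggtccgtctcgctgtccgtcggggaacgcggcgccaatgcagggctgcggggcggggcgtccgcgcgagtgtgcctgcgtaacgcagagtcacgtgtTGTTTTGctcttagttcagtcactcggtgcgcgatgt
G6pc: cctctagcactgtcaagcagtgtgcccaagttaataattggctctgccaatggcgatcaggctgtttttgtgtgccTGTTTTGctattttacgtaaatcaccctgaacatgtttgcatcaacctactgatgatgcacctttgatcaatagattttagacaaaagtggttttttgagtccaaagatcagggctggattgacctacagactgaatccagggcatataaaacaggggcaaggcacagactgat
The match begins 108 bases before the start in Igfbp1, 37 in Irs2 and 174 in G6pc. CAAAACA was found in 5.56% of all windows, in 6.38% of all genes and in 4 of 16 genes of the list with a window (25%). Among the promoters shown, all picked to hold it, it stands in that of G6pc, which rose, and in those of Igfbp1 and Irs2, which fell. The match describes the letters, not a site or a cause.

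The median of the genes activated by PPARα lay below that of all genes. All 24 of the list were measured, 2 fell and 2 rose, and the median was -0.23 (-0.45 with quantile normalization), with -1.14 in the Drp1LiKO pair. Pdk4, which blocks pyruvate oxidation, went from -0.80 to -2.04, a difference of -1.24 (SE 0.24; -0.73 with normexp), and from 0.44 to -1.66 in the Drp1LiKO livers. Ehhadh, a peroxisomal β-oxidation enzyme, fell from 4.70 to 3.67, by 1.04 on the log2 scale, against 6.43 and 4.93. Acot2 was at -0.78, Angptl4 at -0.71 and Cpt1a, the gate of mitochondrial fatty acid entry, at -0.43, where the Drp1LiKO pair had -3.08, -2.17 and -1.23. Whether the 2 pairs differ was not tested. The genes that rose were Fgf21, the fasting hormone, from 1.75 to 3.23 (1.47, SE 0.20), and G0s2, an inhibitor of adipose triglyceride lipase, from 4.43 to 5.85 (1.42, SE 0.20). Fgf21 went the other way in the Drp1LiKO livers, from 4.33 to 2.56. In mitochondrial β-oxidation and ketogenesis, 18 of 18 genes were measured, 0 rose and 0 fell, and the median was -0.11 (-0.30 with quantile normalization), with -0.54 in the Drp1LiKO pair.

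Triacylglycerol synthesis and lipid droplet genes had a median at that of all genes, 0.09, which lay below it with quantile normalization, normexp and the authors' normalized values. Of 20 genes measured 3 rose and 1 fell. Cidea, a protein that fuses lipid droplets and is common in fatty liver, went from 2.08 to 4.29, up by 2.21 (SE 0.20), but stood at -1.04 and -1.81 in the Drp1LiKO livers. Its relative Cidec was at 2.0 and 3.0, a difference at the threshold that came to between 0.88 and 0.99 with median scaling, quantile normalization, normexp and the authors' values. The phosphatidate phosphatase gene Lpin2 fell from 2.18 to 1.05, and Lpin1 differed by -0.99, with another probe well above background on the fasted array alone; both fell by over 3 log2 units in the other pair, at -3.10 and -3.17. Among hepatokines, secreted proteins of the liver, 18 genes were measured, 3 rose and 1 fell, with a median of 0.35 that came down to 0.04, near that of all genes, with quantile normalization and the authors' values. Angptl8 stood at 3.77 and 6.86 in the fasted and refed Cont livers and at 3.43 and 6.99 in the Drp1LiKO livers. It rose by 3.09 (SE 0.20) and 3.56, with a refed level about the same in both genotypes. Tsku rose by 1.05, but by 0.90 with normexp, and was at 0.09 in the Drp1LiKO pair.

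**Figure D2:**
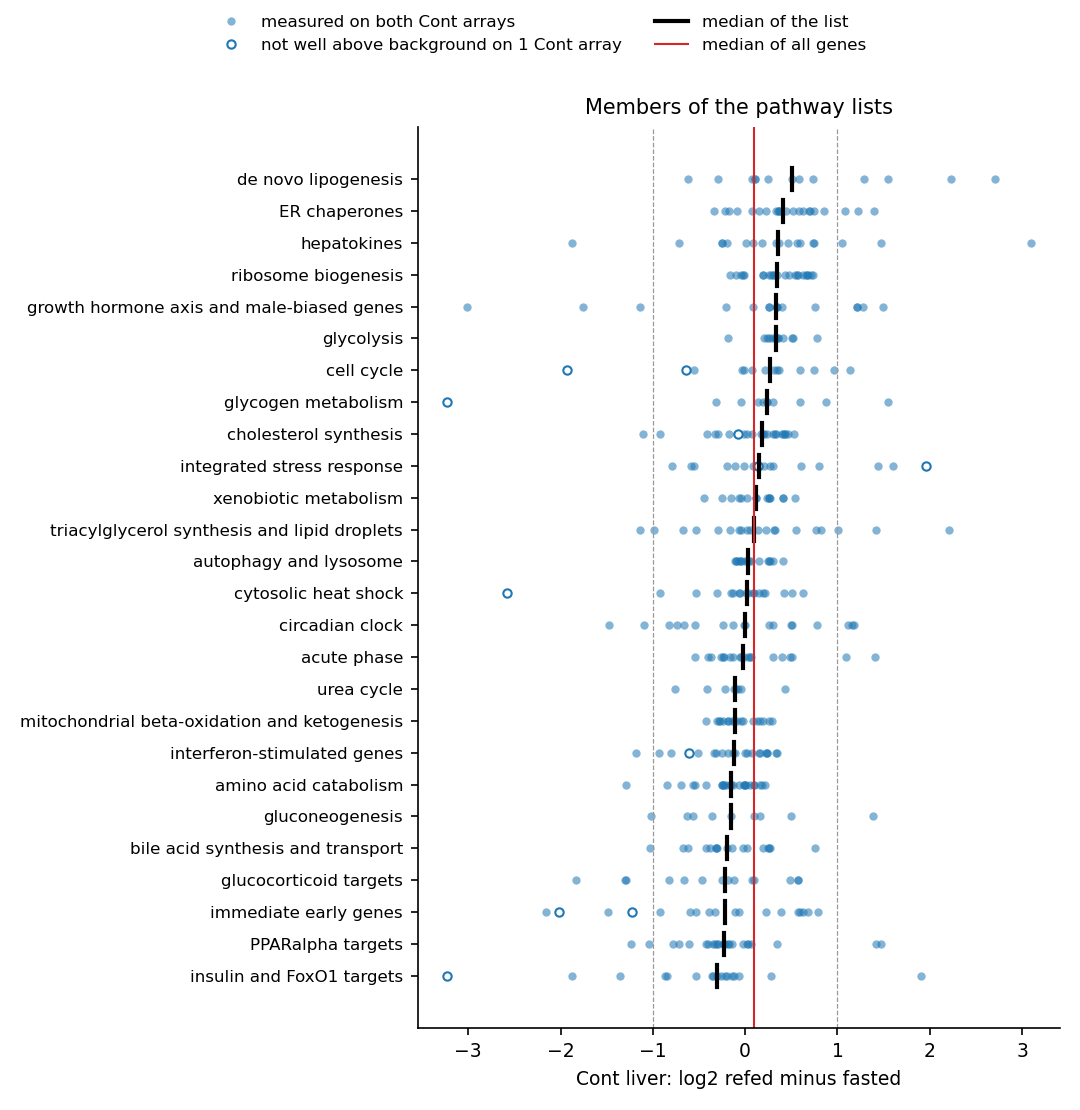
Log2 difference (refed minus fasted) in the Cont liver of each measured gene of the 26 pathway lists, 1 line for each list, ordered by median; black bars are list medians, the red line is the median of all genes (0.09) and dashed lines mark 2-fold. Medians run from -0.31 for insulin and FoxO1 targets to 0.51 for de novo lipogenesis, an order that changes with quantile normalization.

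The list of protein folding in the endoplasmic reticulum (ER) had a median above that of all genes. All 22 ER chaperone genes were measured, 3 rose and 0 fell, where 4.47% of all genes rose and 5.83% fell. The median was 0.41, with 0.81 in the Drp1LiKO pair. Sdf2l1, an ER lumen protein of the chaperone complex, went from 1.76 to 3.15 (1.39, SE 0.20), and from 0.82 to 2.96 in the Drp1LiKO livers. Creld2 went from 4.86 to 6.08 (1.22, SE 0.20) and Manf, a secreted ER stress protein, from 2.98 to 4.05 (1.08, SE 0.20). These last fell below 2-fold with quantile normalization, at 0.94 and 0.91. Hspa5, which encodes the chaperone BiP, was at 0.62, Hyou1 at 0.75, and Xbp1, a transcription factor of the unfolded protein response, at 0.86. Derl3, which takes part in ER-associated degradation and is in no list, rose from 1.55 to 3.85 (2.29, SE 0.20), and by 1.68 in the other pair.

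The promoter of Creld2 is given as an ER chaperone gene that rose, with CCAAT in capitals on either strand, at chr15:88819396-88819645 on the plus strand of GRCm38.p6.
Creld2: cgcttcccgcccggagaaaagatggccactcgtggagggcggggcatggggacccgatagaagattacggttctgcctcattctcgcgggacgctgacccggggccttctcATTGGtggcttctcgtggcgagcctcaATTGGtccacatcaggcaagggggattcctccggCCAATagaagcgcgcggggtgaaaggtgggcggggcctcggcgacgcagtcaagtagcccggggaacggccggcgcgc
Its 3 matches begin 139, 112 and 78 bases before the start, and 17 of 19 genes of the list with a window hold a CCAAT (89.5%), against 37.5% of all genes and 33.8% of all windows. This is a description, not a site or a cause.

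Ribosome biogenesis genes, which serve rRNA synthesis and processing, differed by little each. All 23 were measured, 18 lay above 0, where 58.6% of all genes did, 0 rose and 0 fell, and the median was 0.35, with 0.65 in the Drp1LiKO pair. Rrp12 was at 0.73, Nolc1 at 0.72, Nop2 at 0.68 and Nop56 at 0.67. In the integrated stress response list 3 of 18 genes rose, where 4.47% of all genes did, with a median of 0.15 (0.07 with quantile normalization). Asns, asparagine synthetase, went from -3.04 to -1.44 (1.60, SE 0.26, and 1.04 with normexp), with 0.74 and 2.21 in the Drp1LiKO livers. Atf3, a stress transcription factor, rose by 1.44 (SE 0.25; 0.96 with normexp) from a fasted level of -2.52, and Psat1, of serine synthesis, by at least 1.21 (0.87 with normexp). Their levels in both Cont livers were below those in the Drp1LiKO livers, which stood at 3.06 and 3.35 for Atf3. In the cytosolic heat shock list 18 genes were measured and the median was 0.02, which became negative with quantile normalization, normexp and the authors' values. Hspa1a, the inducible Hsp70, fell by at least 1.42 (bound -1.42; -0.77 with normexp).

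Genes of the growth hormone axis went both ways. Of its 16 genes, all measured, 4 rose and 3 fell, where 4.47% of all genes rose and 5.83% fell. The median was 0.34, which became 0.08 with quantile normalization and the authors' values. Cish and Socs2, which growth hormone induces through STAT5 and which feed back on the receptor, fell. Cish went from 3.02 to 0.00 in the Cont livers, a difference of -3.01 (SE 0.21), and from 1.87 to -0.54 in the Drp1LiKO livers. Socs2 went from 0.76 to -0.99 (-1.75, SE 0.21), and 3 of its 4 probes could be read, from -1.82 to -1.26. Bcl6, a repressor that opposes STAT5 at shared targets, rose from 1.33 to 2.82 (1.49, SE 0.20), and from 0.29 to 3.26. The male-biased genes Hsd3b5, a steroid dehydrogenase, and Cyp4a12a and Cyp4a12b, close copies whose probes may read each other's transcripts, rose by 1.28, 1.21 and 1.22. The Drp1LiKO pair had 3.94 for Hsd3b5, and -0.13 and -0.08 for the Cyp4a12 genes. Elovl3, also male-biased, went the other way and fell by 1.14 on the log2 scale, and Igf1 was at 0.08.

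Among immediate early genes 4 of 18 fell and 0 rose, where 5.83% of all genes fell, and the median was -0.22 (-0.04 with normexp). Socs3, a feedback inhibitor of cytokine signals, went from 1.70 to -0.45 (-2.15, SE 0.21), and by -1.20 in the other pair. Myc, Zfp36 and Junb were dim, with -1.49 and bounds of -1.76 and -0.70, and each passed below 2-fold with normexp, while Jun and Ier2 were at 0.68 and 0.79. The list of glucocorticoid targets had a median of -0.22 that ran from -0.36 to -0.10 over the alternatives. Of its 14 genes 3 fell, where 5.83% of all genes did. They were Zbtb16, from 0.45 to -1.38 (-1.83, SE 0.21), Klf9, from 3.36 to 2.06 (-1.29, SE 0.20), and Cdkn1a, at -1.31, which was at -0.73 with normexp and whose other probes were not well above background on either Cont array. The Drp1LiKO pair had -2.93, -2.29 and -2.42, and Fkbp5, another target of the receptor, was at 0.10.

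Clock genes went both ways, with 3 of 18 up and 2 down, where 4.47% of all genes rose and 5.83% fell. Their median was 0.00 and was positive with normexp. Nr1d1, the repressor REV-ERBα, went from 0.49 to -0.99 (-1.48, SE 0.21), and Ccrn4l, nocturnin, fell by 1.1 on the log2 scale. Bhlhe40, a repressor of the clock, went from 0.51 to 1.70 (1.18, SE 0.20), and Wee1, a cell cycle kinase under clock control, rose by 1.16. Nr1d1, Bhlhe40 and Wee1 also passed 2-fold in the same direction in the Drp1LiKO pair, where Nr1d1 was at -2.15, Bhlhe40 at 1.47 and Wee1 at 1.89. Arntl, which encodes BMAL1, was at -0.54 and Per2 at 0.50. The hours between the collection times go with feeding state, as said, and their part in these values was not tested.

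Few genes of the other metabolic lists passed 2-fold. Cholesterol synthesis had a median of 0.18, above that of all genes, and of 0.03, just below it, with quantile normalization and the authors' values. Of 24 genes measured 1 fell, Idi1, an isopentenyl isomerase, at -1.1, while Hmgcs1 was at -0.93 on the probe read and well above background on the fasted array alone on its other probe. The Drp1LiKO pair had a median of 0.64. In amino acid catabolism 1 of 25 fell, Got1, an aspartate aminotransferase, at -1.29, and the median was -0.15, or -0.36 with quantile normalization and the authors' values. The urea cycle had 8 genes, a median of -0.11, -0.36 with the same alternatives, and 0 called. Cyp7a1, the rate-limiting enzyme of bile acid synthesis, went from 1.75 to 0.72, a fall of 1.03 that normexp brought to -0.98, and was the called gene of 17 in its list, whose median was -0.20, below that of all genes. Autophagy and lysosome genes (16) had a median of 0.03, which turned negative with quantile normalization, the authors' values and the median over probes. Xenobiotic metabolism (15) had 0.12, below that of all genes with quantile normalization, normexp and the authors' values, and in neither of these lists was a gene called.

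Inflammatory lists showed single genes. Acute phase genes (20 measured) had a median of -0.03, and of -0.26 with quantile normalization and the authors' values. Hamp, the iron hormone hepcidin, rose from 5.89 to 7.30 (1.41, SE 0.20), and Saa3 by 1.1, which came to between 0.98 and 0.99 with quantile normalization, normexp and the authors' values. Of 22 interferon-stimulated genes Mx2 fell, by 1.18 on the log2 scale (-0.94 with normexp), and the median was -0.12 (-0.06 with the median over probes), where the Drp1LiKO pair had 0.76. In the cell cycle list (14 measured, median 0.27) Rrm2, a ribonucleotide reductase subunit, rose by 1.14, or 0.91 with normexp. The probe read for Cdk1 was counted as lower but is dim and allows no fold, while another of its probes was well above background on the refed array alone and higher there.

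Beyond the lists, the 10 genes with the largest rise shared by both pairs include Nat8f5, of an N-acetyltransferase family, Serpina9, a serine protease inhibitor, Slpi, a secreted protease inhibitor, and Nrep. Nat8f5 went from 1.09 to 3.32 in the Cont livers and from 1.41 to 3.65 in the Drp1LiKO livers, rises of 2.23 (SE 0.20) and 2.24. Slpi went from 1.2 to 3.02 and from 1.08 to 2.88, again by nearly the same step in both. Serpina9 rose by 2.25 and 2.16 and Nrep by 1.72 and 2.02. The 10 shared falls include Abcd2, which carries very long-chain fatty acids into peroxisomes. It went from -0.46 to -3.47 (-3.01, SE 0.35; -1.57 with normexp), and from -1.82 to -4.39. Gadd45g, a stress-inducible growth arrest gene, went from 4.37 to 2.31 (-2.05, SE 0.20), Fam13a from 0.17 to -1.87 (-2.04, SE 0.22) and the noncoding Ctcflos from -0.24 to -3.06 (-2.81, SE 0.33; -1.62 with normexp). The galectins Lgals4 and Lgals6 fell by 1.74 and 1.83 on the log2 scale (the latter by 1.2 with normexp), and the 3 probes of Lgals4 lay between -1.83 and -1.74.

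**Figure D3:**
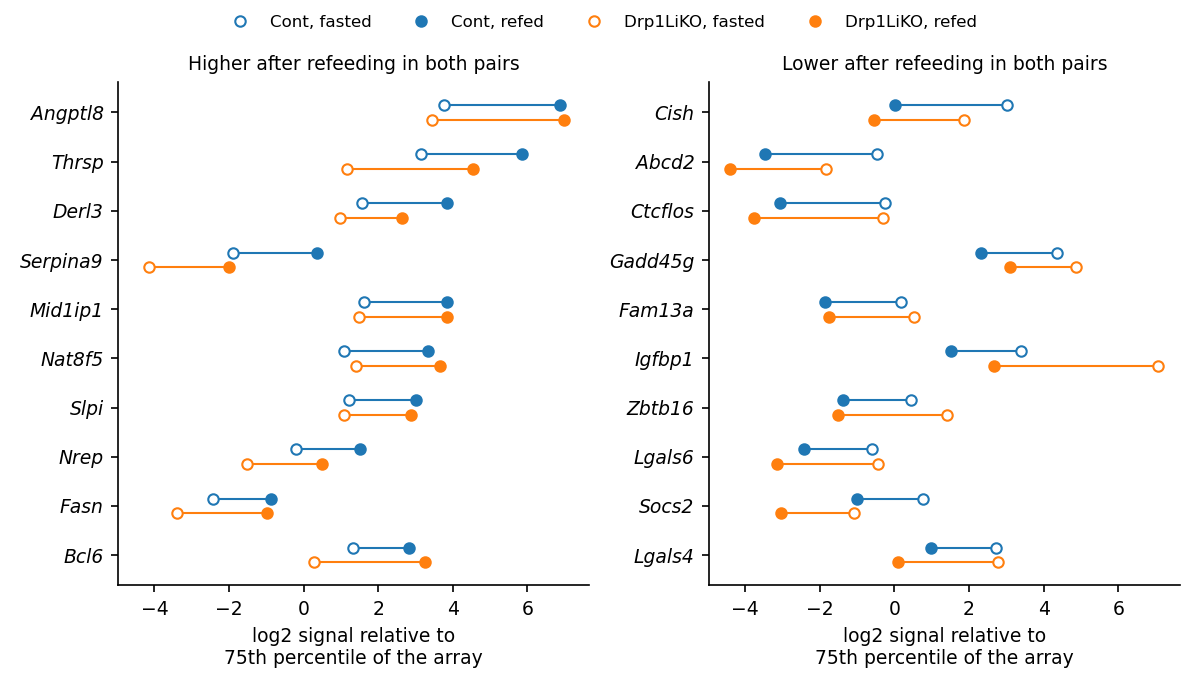
Log2 level relative to the 75th percentile of the array (x axis) of the 10 genes with the largest rise (left) and fall (right) shared by both pairs; open circles are fasted and filled circles refed livers, blue for Cont and orange for Drp1LiKO. The longest line is that of Igfbp1 in Drp1LiKO, from 7.08 to 2.67, against 3.4 to 1.52 in Cont.

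The 12 largest rises of the Cont pair were mostly not shared by the other pair. In order they are Tox4, Nek11, Zfp346, Angptl8, Sik1, Elp4, Gabre, Mga, Fut8, Thrsp, Tmem69 and Mios, from 4.87 to 2.60, and of these only Angptl8 and Thrsp also passed 2-fold upward in the Drp1LiKO pair. Tox4, a chromatin protein gene, had levels of -2.05 and 2.82 in the Cont and of 0.99 and -2.19 in the Drp1LiKO livers, but its other probe, also well above background, was at -0.20. Elp4 rose by 2.98 on the probe read and was at -0.07 on another that was well above background, and the 2 probes of Tmem69 gave 2.70 and 0.37. Sik1, a kinase gene induced by cAMP, was at 2.98, and 0.86 in the other pair. The 12 largest falls are Tnni2, Cish, Abcd2, Cox6a2, Ctcflos, Slc4a1, Mb, Foxq1, Arid5b, Phlda1, Plk3 and Rgs3, and 7 of them fell in both pairs. Among these the transcription factor Foxq1 went from 1.73 to -0.87, the transcription coregulator Arid5b from 3.14 to 0.58, Phlda1 from 5.4 to 2.96 and the stress kinase Plk3 from 4.03 to 1.63. The 3 probes of Rgs3 that were well above background ran from -2.38 to 0.36, and the median difference of its probes was -0.05.

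Calls were not spread evenly over the slide. When the 532 print rows are cut into 10 blocks, blocks 5 to 8 (rows 213 to 425) held 43.2% of the genes but 587 of 735 that rose (79.9%) and 554 of 958 that fell (57.8%). In block 7, 222 of 1843 genes rose, against 14 of 1409 in block 1. Among genes measured on both arrays those rows held 40.9% of all, 63% of the rises and 48.7% of the falls. Of the genes that rose and were measured on all 4 arrays, 95 of 142 (66.9%) in these rows and 78 of 89 (87.6%) outside them were higher in the Drp1LiKO pair too. Of those that fell, 144 of 162 (88.9%) in these rows and 169 of 180 (93.9%) outside them were lower there. In the Drp1LiKO pair the same rows held 43.1% of the genes, 604 of 1028 rises (58.8%) and 748 of 1311 falls (57.1%). On the refed array the median ratio of pixel SD to mean within a spot was 0.249 for genes that rose and 0.157 for all. The rows hold 10 of the 12 largest rises, all but Tox4 and Angptl8, and 8 of the 12 largest falls, Cish and Abcd2 among them. They also hold Fasn, Bcl6, Igfbp1, Sdf2l1, Fgf21, Socs3 and Zbtb16. On the fasted Cont array the ratio of pixel SD to mean was 0.456 for Abcd2, against a median of 0.156 for all genes. Without genes in these rows, an alternative chosen after seeing the data, 148 rose and 404 fell. The part of the position on the slide in the calls was not tested.

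**Figure D4:**
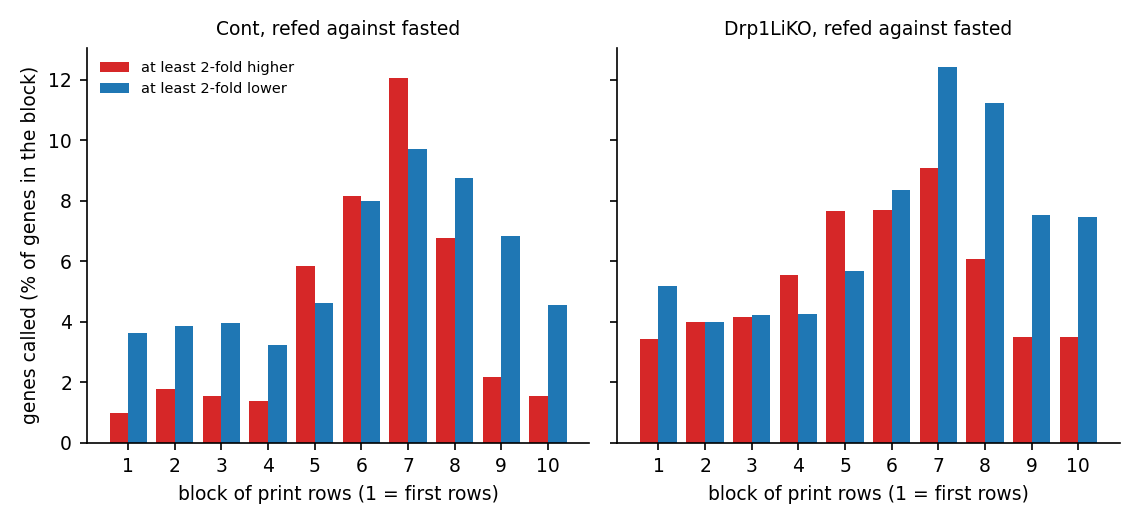
Percent of the genes in each of 10 blocks of print rows (x axis, first rows to last) that were at least 2-fold higher (red) or lower (blue) after refeeding, for the Cont pair (left) and the Drp1LiKO pair (right). In the Cont pair the share of rises goes from 0.99% in block 1 to its highest in block 7 (222 of 1843 genes) and back to 1.54% in block 10.

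Skeletal muscle genes stood out on the fasted Cont array. Of 30 markers 21 were measured, 14 fell with refeeding and 1 rose, where 5.83% of all genes fell and 4.47% rose. In all 4 lay above 0. Of those that fell 3 were measured on both arrays, namely Tnni2, Mb and Cox6a2. The others that fell entered the count only through the fasted array, on which they were high. The median difference was -2.99, or -1.53 with dim signals at their bound. In the 8 markers measured on both Cont arrays the median was -0.63, and over the scalings and probe choices tried the list's median ran from -3.31 to -1.06. The Drp1LiKO pair had a median of -0.01 in 8 markers. The summed level of the list, in units of the 75th percentile, was 17.5 on the fasted and 4.53 on the refed Cont array, and 3.22 and 4.05 on the Drp1LiKO arrays, and 20, 9, 8 and 8 markers were well above background in that order. The brightest was the fast-twitch troponin gene Tnnc2 on the fasted Cont array, the enolase gene Eno3 on the Cont refed and Drp1LiKO fasted arrays, and Cox6a2 on the last. The fasted Cont array was the one that stood apart.

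Tnnc2 had a level of 1.70 on that array and -4.76, -4.83 and -5.02 on the others, where it was not well above background, a fall of at least 5.25 (bound -5.25), which normexp brought to -3.90. Tnni2, fast troponin I, went from 1.52 to -2.40 (-3.92, SE 0.26; -2.93 with normexp), with -2.67 and -2.62 in the Drp1LiKO livers. Mb, myoglobin, had a level of -0.16 against -2.90 (-1.63 with normexp), and Cox6a2, a muscle subunit of cytochrome oxidase, went from -0.02 to -3.01 (-1.92 with normexp) but from -1.37 to 0.19 in the Drp1LiKO livers. Bounds were -3.97 for Tcap, -3.62 for Acta1, skeletal α-actin, -3.02 for Tnnt3, -2.43 and -2.34 for the myosin heavy chains Myh2 and Myh4, and -1.53 for Ckm, muscle creatine kinase, where normexp gave -2.85, -2.28, -2.05, -1.36, -2.05 and -1.06. For Sln and Myh1 the bounds were -0.96 and -0.75, and the call of Mybpc2 allows no fold. Myl1 had a bound of -3.15 on the probe read, or -2.04 with normexp, and another of its probes was well above background on the refed array alone. Casq1 rose, by at least 1.35, or by 1.16 with normexp, and its ratio of pixel SD to mean on the refed array was 0.368. Tnnc2, Acta1, Ckm, Mb, Cox6a2, Sln, Mybpc2 and Casq1 lie in the middle print rows, where calls cluster. Tnni2, Tcap, Tnnt3, Myh1, Myh2, Myh4 and Myl1 lie outside them. Mylpf, Actn3, Ryr1, Ttn, Ampd1, Myoz1, Myot, Smpx and Trim63 were well above background on no Cont array. Where the muscle signal on this 1 array came from was not tested, nor was the part of muscle RNA in the other differences. In bulk tissue, fewer cells of a type and less RNA per cell cannot be told apart.

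**Figure D5:**
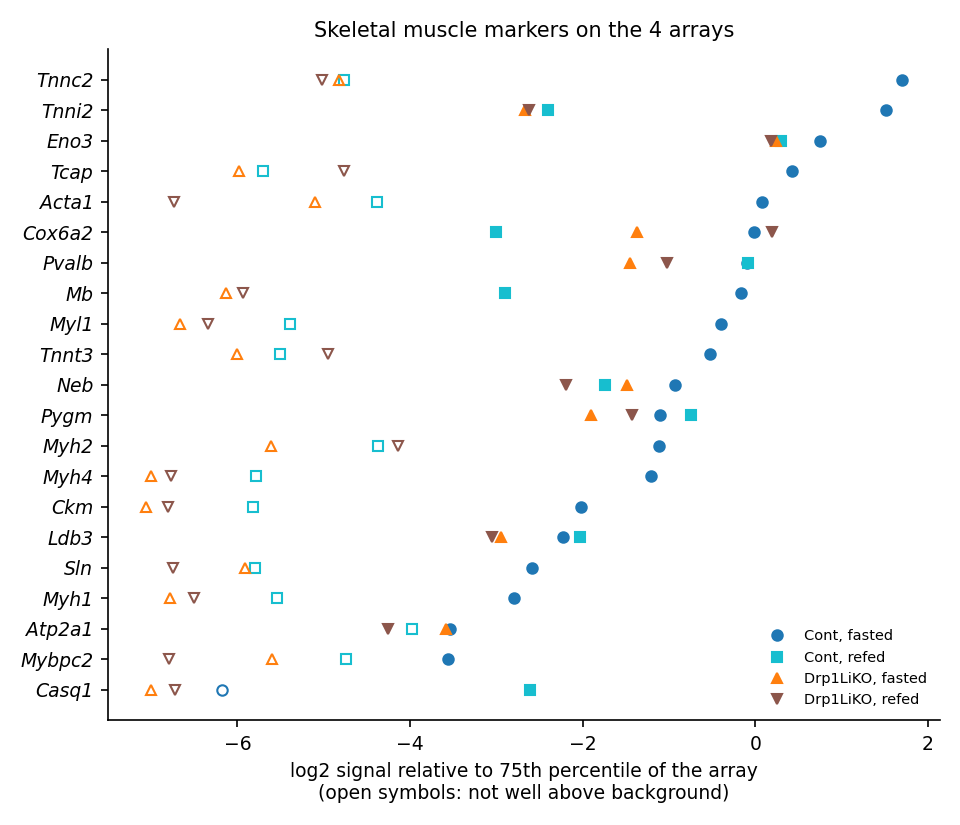
Log2 level relative to the 75th percentile of the array (x axis) of the 21 skeletal muscle markers measured on a Cont array, with a symbol for each of the 4 arrays; open symbols are not well above background. Tnnc2 is at 1.70 on the fasted Cont array and between -5.02 and -4.76 on the other 3.

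In markers measured on both Cont arrays, no other marker list had a median as low as that of muscle (-0.63). The muscle median over all measured markers is not ranked here, because most of them were well above background on the fasted array alone. Of the 12 hepatocyte markers 12 were measured on every array and none passed 2-fold. Their median was 0.23, which was negative with quantile normalization and the authors' values, and the summed level was 5384 fasted and 6423 refed, with Apoa2 the brightest on each array. Of 7 brown adipose markers 6 were measured, with a median of -0.66, which ran from -0.82 to -0.41 over the scalings and probe choices tried and was -0.40 with dim signals at their bound and -0.18 in the 5 markers measured on both Cont arrays. Of these 3 fell: Ucp1, the uncoupling protein, by at least 0.62 (bound -0.62; -0.61 with normexp), Cox8b from 0.33 to -1.41 (-1.74, SE 0.22) and Elovl3, which hepatocytes also express. Cidea was the member that rose, Dio2 was not well above background, and the list's summed level was 55.1 and 60.6, with Ppara, also a hepatocyte gene, the brightest. Of 9 white adipose markers 5 were measured, with a median of 0.20, among them Cfd, the adipose protein adipsin, which rose from 2.08 to 4.45 (2.37, SE 0.20) and was at -2.99 and -1.83 in the Drp1LiKO livers. Adrb3 fell, at the threshold (-1.0), and passed below 2-fold in all alternatives but median scaling, while Adipoq, Lep, Retn and Plin1 were not well above background. The summed level was 140 and 226, with Car3 the brightest. All 12 macrophage markers were measured, with a median of 0.14 that fell below that of all genes under quantile normalization, normexp and the authors' values, and a summed level of 114 and 127 with Cd5l the brightest. Marco, a scavenger receptor of Kupffer cells, rose from 2.41 to 3.75 (1.34, SE 0.20) and by 1.30 in the other pair. The part of these cells in the result was not tested.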

How the data were processed

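Liver RNA was measured on 4 one-colour arrays, of which the Cont refed and the Cont fasted array are compared here. The intensity values are those deposited by the authors as scanner output: per the file headers, Feature Extraction 10.7.1.1 subtracted the background within each array (the labels name version 9.5.1.1), so that they are linear signals without normalization across arrays. The authors also deposited a matrix of the same intensities after quantile normalization, which served as an alternative. The array design named in the labels is the one in the files, while the study's methods name another array and another RNA kit.

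Gene spots were averaged by probe on the log2 scale after spots marked as outliers were dropped, which removed 37 of 39429 probes, and the 75th percentile of the array was subtracted. Of 28358 RefSeq probes 26733 were matched to a gene, and the rest kept the name in the file. Each gene was read from 1 probe, the one detected on most arrays, with ties decided by mean signal; 7056 of 30439 genes have several probes. A dim side was bounded by the weakest signal on its array that counted as well above background, or by the probe's signal where that was higher. Repeated spots of a probe had a median SD of 0.06 to 0.07 (log2).

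Named are the 12 largest rises and 12 largest falls of genes with a symbol measured on both Cont arrays, the 10 largest shared with the Drp1LiKO pair in each direction, and members of 26 pathway and 15 marker lists, called ones first, with those called in opposite directions in the pairs. The members and lists were chosen with earlier results of these data known. Not found on the array were 6 listed genes.

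Alternatives were median scaling, quantile normalization, normexp with an offset of 50, the authors' values, the median over probes (of the levels on each array), other filters on dim probes, thresholds of 1.5-fold and 3-fold, the dim side at its bound, and for limma also an intensity trend and feeding state alone. Leaving out the middle print rows and the median difference of the probes of a gene were chosen after seeing the data. Promoter windows are from RefSeq on GRCm38.p6, and motifs were searched on both strands; those shown were picked among genes that hold the motif. The procedure was tested on simulated data. The tools were Python 3.11.15, numpy 2.4.6, pandas 2.3.3, matplotlib 3.10.9, R 4.3.3 and limma 3.58.1.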

Additional observations from a re-analysis of the deposited data

Results flagged for a closer look

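Of the named genes, 4 passed 2-fold in opposite directions in the Cont and the Drp1LiKO pair, each a single pair of arrays. Tox4 differed by 4.87 in the Cont and -3.18 in the Drp1LiKO pair on the probe read, while its other probe was at -0.20 in the Cont pair. Cox6a2, a muscle marker, was at -2.99 and 1.56. Fgf21 was at 1.47 and -1.77, because its level was 1.75 in the fasted Cont and 4.33 in the fasted Drp1LiKO liver and 3.23 and 2.56 after refeeding. Mx2 was at -1.18 and 1.07, and at -0.94 in the Cont pair with normexp. The difference between the pairs was not tested for any of the 4.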

How the results depend on the processing

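Within the Cont pair no paired analysis was possible because each condition has 1 array; the limma fit takes genotype as a term over both pairs. Leaving out replicates was not possible either. Against 735 higher and 958 lower genes, normexp gave 439 and 287, which made 60.5% of calls higher against 43.4%. Measurement on both arrays gave 246 and 351, a 1.5-fold threshold 1648 and 1928, and leaving out the middle print rows 148 and 404. No filter on dim probes gave 1846 higher and 1329 lower genes, so that rises outnumbered falls there too. For lower genes a 3-fold threshold gave 524 and the dim side at its bound 606. The filters on dim probes, the fold thresholds and the bound change the counts by construction. The normexp counts are not fixed in this way. Leaving out the middle rows removes genes, but those rows held 43.2% of the genes and 79.9% of the rises. Median scaling, quantile normalization, the authors' values and the median over probes kept both counts within 1.5 times. For limma, the genes measured on all 4 arrays gave 15 calls, and quantile normalization, the trend, feeding state alone and leaving out the rows gave 0. Among 104 named genes the direction changed for 3, with the median over probes: Elp4 (-0.037), Cdkn1a (1.02) and Cdk1 (0.53). That median is taken on each array, so the 2 levels can come from different probes. The median of the probe differences gave 0.29 for Elp4, 0.41 for Cdkn1a and 0.53 for Cdk1, and so changed the direction of 2; it brought 7 of 18 named genes with several probes under 2-fold. Under 2-fold came 1 with median scaling, 6 with quantile normalization, 26 with normexp, 7 with the authors' values and 6 with the median over probes. Of 41 list medians, 6 lay on the other side of the all-gene median with quantile normalization, 6 with the authors' values, 4 with normexp, 1 with the median over probes and 0 with median scaling. The cause of these shifts was not tested. Dim probes are a further limit: 48.7% of gene spots on the refed and 51.4% on the fasted Cont array were well above background.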

Other observations

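Marker lists not described so far had few calls in the Cont pair. Summed levels are in units of the 75th percentile of the array, for the fasted and then the refed Cont array. Of 8 endothelial markers 0 were called, the median was -0.13 (-0.08 with normexp) and the sum 58.0 and 60.8, with the sinusoidal lectin Clec4g the brightest and Tek not well above background. All 8 stellate cell and fibroblast markers lay above 0, with a median of 0.40, 0 called and sums of 47.8 and 54.4, Dcn being the brightest. The cholangiocyte list had 4 measured genes, a median of 0.30 and sums of 0.59 and 0.70 with Spp1 the brightest, while Krt7, Epcam and Muc1 were not well above background.

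Among blood cells, 7 of 10 neutrophil markers were measured, with a median of 0.17 that passed below that of all genes with the median over probes, and sums of 94.9 and 57.7, led by Csf3r; Cxcr2, Mpo and Ngp were not well above background. The T and NK cell list had 8 measured genes, a median of 0.37 and sums of 24.4 and 25.7, led by Cd4, and Cd3g, Cd8a, Ncr1 and Klrb1c were not well above background. Of 6 B cell markers on the array 3 were measured, with a median of 0.86 (0.54 with normexp) and sums of 0.76 and 1.40; Ms4a1 and Blk were not well above background, and Jchain was the brightest fasted and Cd79b refed. In these lists 0 genes were called. The erythroid list had 4 measured genes, a median of 0.13 that fell below that of all genes with quantile normalization, normexp and the authors' values, and sums of 127 and 152 with Hba-a1 the brightest. Its called gene was Slc4a1, the band 3 anion exchanger, which fell from 0.11 to -2.66 (-2.77, SE 0.26), with -3.57 and -2.62 in the Drp1LiKO livers. The Slc4a1 spot lies in the middle print rows. On the fasted Cont array its ratio of pixel SD to mean was 0.454, against a median of 0.156 for all genes.

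Of 10 heart muscle markers 6 were measured, with a median of 0.56 (1.05 with the median over probes) and sums of 0.86 and 0.89. Myl3, which slow skeletal muscle also expresses, fell by at least 1.71 (bound -1.71) and was the brightest on the fasted array, and Myl7 and Tnnc1 rose by at least 0.81 and 0.69; with normexp these came to -0.84, 0.79 and 0.58. Actc1, Nppa, Tnnt2 and Tnni3 were not well above background. Smooth muscle had 4 measured markers, a median of -0.04 that was positive with normexp and 0.20 in the 3 measured on both Cont arrays, and sums of 3.32 and 3.92 led by Tagln, without Myh11, Cnn1 and Actg2. The exocrine pancreas list had 4 of 13 genes measured, a median of 0.54 and sums of 1.49 and 2.16 led by Ctrb1, and 0 called. Prss1, Prss2, Cela1, Cela3b, Cpa1, Cpb1, Pnlip, Try4 and Reg1 were not well above background. The part of these cells in the result was not tested.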
